A study of Oryctolagus cuniculus with 39 samples.

Results

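The comparison described here is between 12 and 6 weeks of age in the stromal vascular fraction (SVF) of interscapular brown adipose tissue (iBAT) of New Zealand White rabbits. The SVF is the mix of progenitors, fibroblasts, vessel cells and blood-derived cells that remains after the fat cells of the tissue have been removed. Members were chosen by age, depot and fraction alone. They are 6 bulk RNA-seq libraries, 3 from rabbits of 6 weeks and 3 from rabbits of 12 weeks, of 39 labelled samples in all, 36 of which had a column of values. From the 20589 gene identifiers of the table, 11632 genes were tested, namely those with an FPKM (fragments per length of transcript and per total of mapped fragments) of at least 1 in at least 3 of these 6 libraries after median ratio scaling. The same ages of the SVF of subscapular brown adipose tissue (sBAT), also 3 libraries each, were used to ask whether a change differed between depots. The other libraries were of day 1 and 3 weeks, or of whole iBAT, and 3 single-cell samples were not analysed here. No genotype, transgene or treatment is given for any group, so the groups differed in age and depot only as far as the labels say. The sex of the rabbits and whether each library came from a separate animal are not stated, so p-values measure a spread between libraries that may be technical. That spread was pooled over all 24 SVF libraries, including those of day 1 and 3 weeks, and is not that of the 6 libraries alone.

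Brown adipose tissue burns fat to make heat, through the mitochondrial uncoupling protein UCP1. In the rabbit the interscapular depot is brown at birth and turns into a white-like depot over the following weeks, a loss known as involution. New fat cells arise from fibroblast-like progenitors of the stroma, which pass through a committed preadipocyte stage, and the same stroma holds macrophages, endothelial cells, mural cells around vessels and nerve-associated cells. Enzymatic dispersal and handling of a tissue are themselves known to induce immediate early genes and chemokines in stromal cells.

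Depth and age ran together in these libraries. Relative depth, estimated from the steps between low FPKM values, was 1.24 to 1.26 at 6 weeks and 0.762 to 0.820 at 12 weeks, and the number of genes above 0 was 17071 to 17666 and 16282 to 16839. The share of the deposited FPKM held by ADORA1 and LOC100009266, a pair singled out for their abundance, was 0.497% to 0.602% at 6 weeks and 4.04% to 5.50% at 12 weeks. Across genes, replicates correlated at Pearson's r of 0.950 to 0.975 within the 6-week group, 0.965 to 0.972 within the 12-week group and 0.900 to 0.938 between them, on the log2(FPKM + 1) scale. Depth and age cannot be told apart here, and the part of depth in the results was not tested. UCP1 did not pass the filter on low values: it was listed at 0 in 2 of the 3 libraries of each age and at 0.0411 and 0.0449 in the remaining ones.

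Which stromal genes changed between 6 and 12 weeks was asked with limma on log2(FPKM + 1). Blood cell genes, a set of lipid droplet and lipogenic genes, and genes for ribosomes and respiratory chain subunits were higher at 12 weeks. Immediate early genes, chemokines, tissue macrophage receptors, imprinted growth genes and parts of the extracellular matrix were lower. At an adjusted p under 0.05 (Benjamini-Hochberg, over all genes tested), 2404 genes or 20.7% differed, of which 1101 (9.47%) were higher and 1303 (11.2%) lower at 12 weeks. Over all genes tested the median change was 0.03 on the log2 scale. With the deposited, unscaled FPKM 1010 genes were higher and 716 lower, and with upper quartile scaling 787 were higher and 1612 lower, so the balance of directions depended on the scaling. The count fell to 1430 without the 12-week replicate 3 and to 1555 without the 6-week replicate 3. In 5007 genes (43.0%), called or not, the 6-week and 12-week values did not overlap. The 12 largest rises and 12 largest falls drawn on below were taken from called genes without such overlap. Its absence in them follows from that choice and is no added support.

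**Figure D1:**
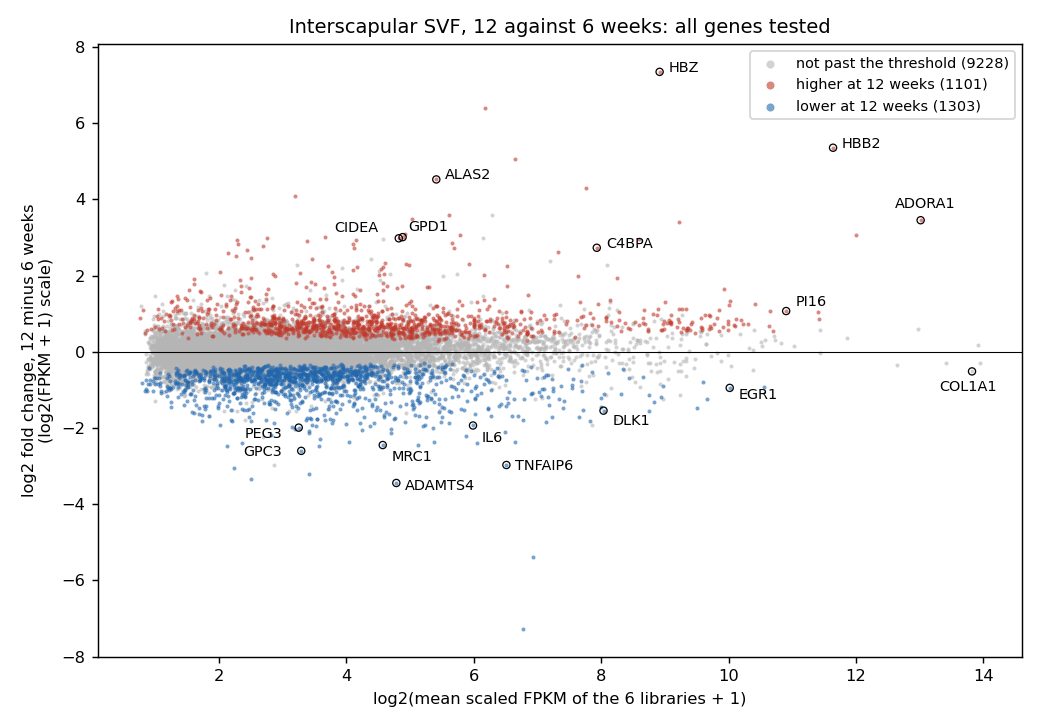
Each point is 1 of the 11632 genes tested in the interscapular SVF; the horizontal axis is the log2 of the mean scaled FPKM + 1 over the 6 libraries, the vertical axis the log2 fold change of 12 minus 6 weeks, and colours mark the 1101 genes higher and 1303 lower at an adjusted p under 0.05. HBZ and HBB2 lie at the top with log2 fold changes of 7.35 and 5.36, while COL1A1, among the most abundant genes, lies near 0 and is not called.

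The largest rises among the named genes were in genes of red blood cells. HBB2, which encodes the beta chain of adult hemoglobin, had a scaled FPKM of 145, 346 and 65.0 at 6 weeks and of 5128, 5839 and 7622 at 12 weeks. HBZ, annotated as the zeta globin chain, had 5.59, 9.73 and 1.89 at 6 weeks and 897, 1022 and 960 at 12 weeks. ALAS2, the first enzyme of heme synthesis in red cell precursors, had 2.70, 4.61 and 1.12 at 6 weeks and 72.8, 83.0 and 85.4 at 12 weeks. In all of these the ages were far apart, and the log2 fold changes (± SE) were 7.35 ± 0.63 for HBZ (adjusted p = 3.43e-06), 5.36 ± 0.70 for HBB2 (adjusted p = 6.81e-05) and 4.52 ± 0.72 for ALAS2 (adjusted p = 0.000329). HBQ1, a theta globin gene, rose by 4.29 (adjusted p = 0.000953). Globin genes are near-identical copies, so how their fragments were divided among them is uncertain. Of the 12 matched erythroid markers, which held no globin gene, 6 were abundant enough to test, and 3 rose, among them ALAS2 and the carbonic anhydrase gene CA1 (log2 fold change 2.52). Their summed scaled FPKM was 8.76 to 14.5 at 6 weeks and 96.5 to 114 at 12 weeks. In bulk libraries more cells of a type and more RNA per cell cannot be told apart, here or in any group below.

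A set of genes of fat cells was also higher at 12 weeks. CIDEA, a lipid droplet protein abundant in brown fat cells, had a scaled FPKM of 6.88, 4.48 and 5.39 at 6 weeks and of 49.4, 48.4 and 56.6 at 12 weeks. GPD1, the cytosolic glycerol-3-phosphate dehydrogenase that makes the backbone of triglycerides, had 5.05, 6.03 and 4.87 at 6 weeks and 60.5, 39.7 and 47.8 at 12 weeks. No 6-week value of either gene came near a 12-week value, and the log2 fold changes were 3.01 ± 0.37 for CIDEA (adjusted p = 3.91e-05) and 2.98 ± 0.29 for GPD1 (adjusted p = 7.74e-06). FABP7, a fatty acid binding protein, had 2.60, 2.75 and 3.15 at 6 weeks against 37.3, 12.1 and 39.3 at 12 weeks, a rise of 2.83 ± 0.41 (adjusted p = 0.000148). SNCG, gamma-synuclein, rose from 8.91, 13.8 and 15.7 to 93.4, 85.9 and 85.2.

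In all, 8 of 13 tested adipocyte markers rose and none fell, 61.5% against 20.7% of all genes tested. The median log2 fold change of the list was 1.60, against 0.03 for all genes tested. Besides CIDEA, GPD1, FABP7 and SNCG, the genes that rose were DGAT2, which makes triglycerides (log2 fold change 2.30), the lipid droplet gene CIDEC (2.08), the leptin gene LEP (1.60) and LIPE, hormone-sensitive lipase (1.09). LEP was at 0.23, 0.51 and 0.93 at 6 weeks, so it passed the filter only through its 12-week values. The marker ADIPOQ, adiponectin, did not follow: its scaled FPKM was 448, 337 and 1174 at 6 weeks and 289, 438 and 237 at 12 weeks, overlapping between ages (adjusted p = 0.162). FABP4, the fatty acid binding protein of fat cells and preadipocytes, overlapped too, at 2203, 1529 and 2994 against 2256, 3601 and 3964 (adjusted p = 0.452). ADIPOQ was the most abundant member, and the list's summed level overlapped, at 394 to 1223 at 6 weeks and 558 to 710.5 at 12 weeks. In whole iBAT, a table normalized on its own and so not on the same scale, CIDEA averaged 1293 at 6 weeks and 1644 at 12 weeks, GPD1 1203 and 2258, and FABP7 655 and 1832. The part that residual fat cells or their free RNA had in the SVF values was not tested.

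Of 13 tested genes of fatty acid synthesis 4 rose and none fell, 30.8% against 20.7% of all genes tested, with a median log2 fold change of 0.21. They were THRSP, a regulator of lipogenesis, with 2.49, 4.47 and 3.81 at 6 weeks and 30.7, 22.4 and 34.4 at 12 weeks (log2 fold change 2.72 ± 0.63, adjusted p = 0.00518), ACSS2, which makes acetyl-CoA from acetate (1.63), MID1IP1, a partner of acetyl-CoA carboxylase (1.15), and SLC25A1, the mitochondrial citrate carrier (1.06). LOC100346046, named in the table as an acyl-CoA desaturase-like gene and singled out after its values were seen, went from 2.62, 4.70 and 6.43 to 63.4, 60.04 and 53.2 (log2 fold change 3.48, adjusted p = 8.7e-06). Among 22 tested genes of cholesterol synthesis 8 rose and none fell (36.4%), with a median of 0.57. FDPS, farnesyl diphosphate synthase, rose from 5.15, 3.22 and 5.02 to 9.36, 8.60 and 8.99 (log2 fold change 0.89, adjusted p = 0.000388). The list's summed level was 194 to 236 at 6 weeks and 285 to 316 at 12 weeks, and without the 12-week replicate 3 or the 6-week replicate 2 its rises numbered 5.

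**Figure D2:**
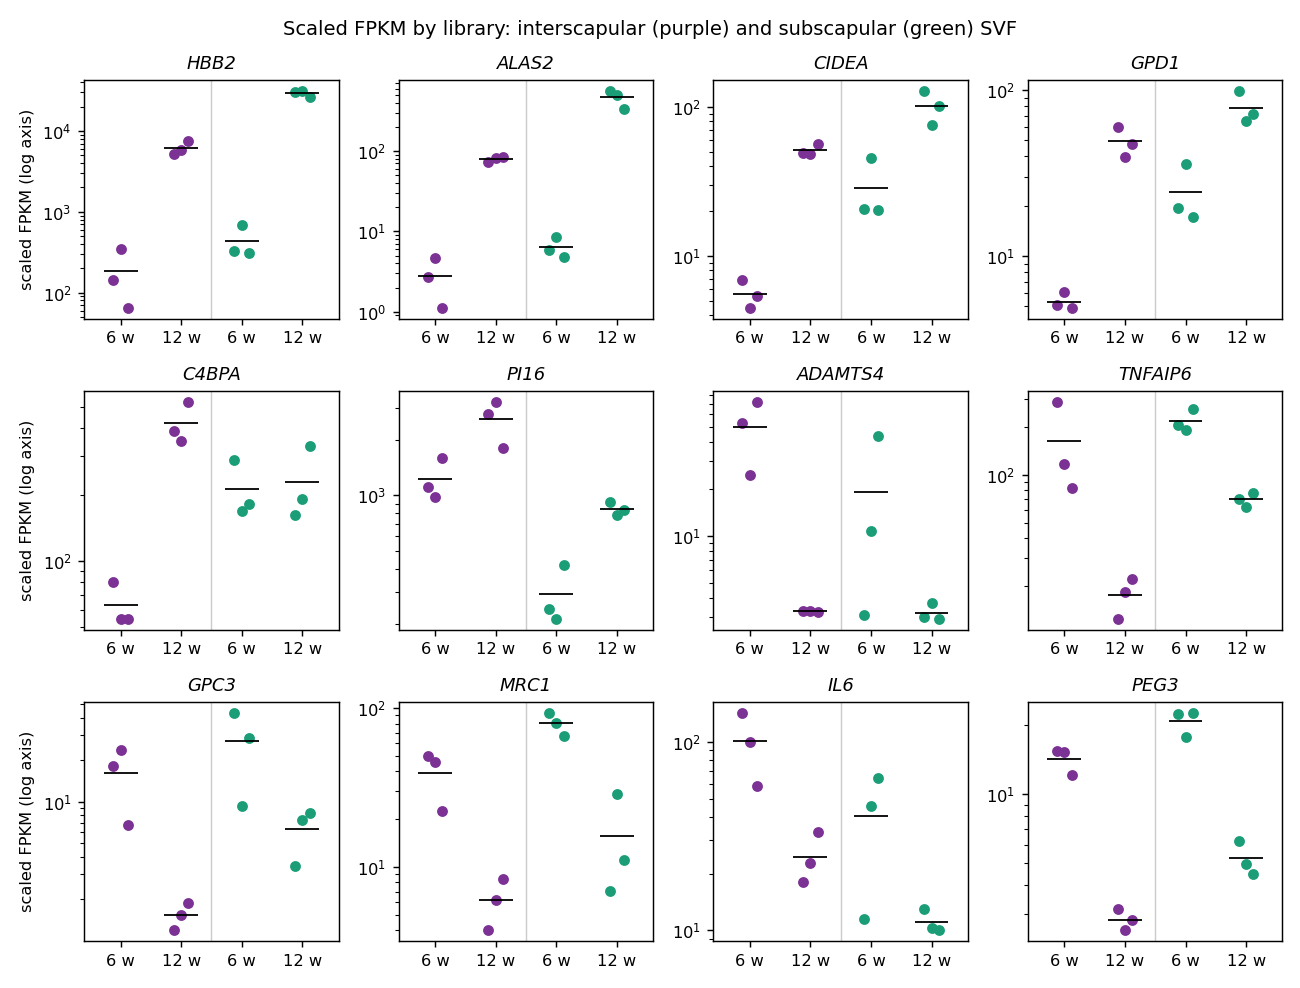
Scaled FPKM of 12 genes on log axes, 1 point per library and a line at each mean, for the interscapular SVF (purple) and the subscapular SVF (green) at 6 and 12 weeks. The 6-week and 12-week points of the interscapular SVF do not overlap in any of the 12 panels, as for CIDEA at 4.48 to 6.88 and 48.4 to 56.6, while those of C4BPA in the subscapular SVF do. Most of these genes were chosen by a rule that required no overlap, and 43.0% of all genes tested had none, so this is no added support.

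Markers of adipose progenitors moved in both directions. PI16 marks an early, multipotent progenitor of connective tissue, and its scaled FPKM was 1116, 981 and 1598 at 6 weeks and 2755, 3226 and 1816 at 12 weeks. CLEC3B, tetranectin, which is also high in that cell, had 734, 990 and 720 at 6 weeks and 1811, 1720 and 2233 at 12 weeks. Both rose, PI16 by 1.07 ± 0.35 (adjusted p = 0.0336) and CLEC3B by 1.24 ± 0.22 (adjusted p = 0.000806). The call of PI16 was lost without replicate 1 or replicate 2 of either age (adjusted p = 0.0929 to 0.121), with the deposited values (0.0556) and with upper quartile scaling (0.0707).

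Of 18 tested progenitor markers, 2 rose and 3 fell, 27.8% against 20.7% of all genes tested. EBF2, a transcription factor of brown-fated progenitors, fell from 21.2, 21.6 and 15.7 to 11.5, 10.2 and 12.1 (log2 fold change -0.73, adjusted p = 0.00482), and with the deposited values its adjusted p was 0.0528. PDGFRB, a receptor of progenitors and mural cells, fell by 0.67 (adjusted p = 0.0157), and its call was lost without replicate 3 at 12 weeks (0.108) or at 6 weeks (0.0839) and with the deposited values (0.0939). DLK1, described below, was the third. The general fibroblast receptor PDGFRA overlapped between ages, at 41.2, 57.0 and 31.2 against 47.0, 35.1 and 39.0. The summed level of the list was nonetheless higher at 12 weeks, 8484 to 8910 against 5534 to 6259, with PI16 and CLEC3B among its most abundant members.

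Among 15 tested markers of committed preadipocytes, 5 were lower and none higher (33.3%, against 20.7% of all genes tested), with a median log2 fold change of -0.43. Without the 12-week replicate 1 or the 6-week replicate 3, 3 were lower, and with the deposited values 2. CEBPD, a transcription factor of early fat cell differentiation, had a scaled FPKM of 147, 182 and 131 at 6 weeks and of 59.1, 53.8 and 82.5 at 12 weeks, a fall of 1.23 ± 0.26 (adjusted p = 0.00301). Its relative CEBPB fell from 13.6, 16.6 and 12.7 to 6.18, 6.01 and 8.01 (log2 fold change -0.98, adjusted p = 0.0113). CEBPD and CEBPB are also induced by inflammation, and immediate early genes and cytokines fell between the same libraries; their part in these falls was not tested. PPARG, the master regulator of the fat cell, did not pass the test, with 32.9, 23.5 and 48.0 against 17.6, 33.8 and 24.4 (adjusted p = 0.458).

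Imprinted genes, which are expressed from 1 parental copy and many of which act on growth before and after birth, were lower at 12 weeks. PEG3, a zinc finger gene, had a scaled FPKM of 15.4, 15.3 and 12.1 at 6 weeks and of 3.13, 2.54 and 2.80 at 12 weeks. PLAGL1, a zinc finger regulator of other imprinted genes, had 23.4, 17.7 and 11.2 against 3.41, 3.37 and 3.94, and PEG10, a gene derived from a retrotransposon, had 14.8, 5.82 and 7.76 against 1.65, 1.91 and 2.02. The ages did not overlap in these genes, and the log2 fold changes were -1.99 ± 0.21 for PEG3 (adjusted p = 1.33e-05), -1.96 ± 0.24 for PLAGL1 (adjusted p = 3.8e-05) and -1.78 ± 0.25 for PEG10 (adjusted p = 0.000115).

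DLK1, an inhibitor of fat cell differentiation made by preadipocytes, fell from 266, 650 and 274 to 119, 94.7 and 167 (log2 fold change -1.55, adjusted p = 0.0306), but its call was lost without the 6-week replicate 2, its highest library (0.145), or the 12-week replicate 1 (0.0759) or 2 (0.0991). MAGEL2 fell by 1.08 and MEST by 1.37 on the log2 scale, MEST with overlapping values and not without replicate 1 or 2 at 12 weeks or replicate 2 at 6 weeks (adjusted p = 0.0686 to 0.0902). Thus 6 of 10 tested members of the list fell and none rose, against 11.2% lower among all genes tested, and the other 4 also had negative fold changes, with a median of -1.23. LOC100346323, named in the table as neuroendocrine secretory protein 55-like and singled out after its values were seen, went from 16.9, 12.5 and 24.8 to 0.579, 0.135 and 3.41 (log2 fold change -3.21, adjusted p = 3.8e-05).

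GPC3, glypican-3, a cell surface proteoglycan that restrains growth, had a scaled FPKM of 18.01, 23.4 and 6.78 at 6 weeks and of 1.197, 1.54 and 1.88 at 12 weeks, a fall of 2.60 ± 0.42 (adjusted p = 0.000388). CAPN6, a calpain without protease activity that is expressed in developing tissues, had 29.3, 10.7 and 18.3 against 1.86, 2.75 and 2.75, a fall of 2.47 ± 0.35 (adjusted p = 0.000117). IGF1, insulin-like growth factor 1, had 56.2, 46.2 and 40.4 against 10.4, 20.1 and 21.8 (log2 fold change -1.45, adjusted p = 0.000694). IGFBP6, a binding protein that holds back IGF2, moved the other way, from 602, 747 and 414 to 1447, 1027 and 1970 (1.32, adjusted p = 0.0034). Across the IGF and growth hormone list 1 of 14 tested genes rose and 4 fell (35.7%, against 20.7% of all genes tested), and with the deposited values 2 fell. None of 32 tested cell cycle genes passed the test in either direction (1 fell without the 6-week replicate 2 and 1 rose without the 6-week replicate 3), and their summed level overlapped, at 119 to 275 against 118 to 164.

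Parts of the extracellular matrix fell, although not its most abundant collagens. COL5A3, a chain of type V collagen, had a scaled FPKM of 77.4, 37.4 and 62.4 at 6 weeks and of 18.8, 13.3 and 11.4 at 12 weeks (log2 fold change -1.92 ± 0.24, adjusted p = 5.2e-05). THBS1, thrombospondin-1, which binds matrix and activates TGF-beta, had 289, 123 and 102 against 42.2, 39.4 and 51.1 (-1.79 ± 0.36, adjusted p = 0.00206). Of 38 tested matrix genes 12 fell and none rose (31.6%, against 20.7% of all genes tested), with a median of -0.48. Without the 12-week replicate 3 the number was 5, and with the deposited values also 5. COL1A1 and COL3A1, the main fibrillar collagens and among the 10 most abundant genes, did not pass the test: COL1A1 had 15220, 22830 and 13480 against 12830, 10050 and 12430 (adjusted p = 0.36). The summed level of the list overlapped between ages, at 61730 to 102600 and 58290 to 87860.

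Enzymes and inhibitors that act on the matrix included the largest fall among named genes. ADAMTS4, an aggrecanase that cuts proteoglycans, had a scaled FPKM of 52.8, 24.6 and 72.2 at 6 weeks and of 3.28, 3.28 and 3.26 at 12 weeks, a fall of 3.44 ± 0.55 (adjusted p = 0.000349). MMP19, a matrix metalloproteinase, fell by 1.76 on the log2 scale (adjusted p = 0.000148), and ADAMTS1, a relative of ADAMTS4, by 1.36 (adjusted p = 7.75e-05). SERPINH1, the chaperone of collagen folding, rose from 545, 519 and 449 to 831, 794 and 970 (0.78, adjusted p = 0.00557). In this list of 31 tested genes 2 rose and 4 fell, 19.4% against 20.7% of all genes tested, so the share changed was near that of the background. The rises numbered 1 without any single library other than the 12-week replicate 3.

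Immediate early genes, whose transcripts appear within minutes of a stimulus, were lower at 12 weeks. DUSP5, a nuclear phosphatase that switches off the kinase ERK, had a scaled FPKM of 77.2, 53.7 and 44.2 at 6 weeks and of 9.28, 10.1 and 9.55 at 12 weeks, a fall of 2.44 ± 0.34 (adjusted p = 0.000117). EGR1, a zinc finger transcription factor, had 1247, 1439 and 1413 against 709, 724 and 685, a fall of 0.95 ± 0.18 (adjusted p = 0.00145). NR4A2, a nuclear receptor, had 95.3, 67.2 and 89.9 against 32.3, 21.9 and 31.1, a fall of 1.54 ± 0.16 (adjusted p = 8.82e-06). In each of these the 12-week values were close together and below every 6-week value.

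Of 28 tested immediate early genes 16 fell and none rose, a share of 57.1% against 20.7% of all genes tested, with a median of -1.03, and 1 rose without the 6-week replicate 3. FOSL1 (-2.06), NR4A3 (-1.70), FOSL2 (-1.59), ZFP36, which destabilizes cytokine transcripts (-1.47), FOSB (-1.32) and ATF3 (-1.23) fell together with MYC (-1.02). FOS itself did not pass the test, at 830, 1049 and 776 against 735, 787 and 917 (adjusted p = 0.709), and neither did JUN (adjusted p = 0.371). The summed level of the list was 8235 to 9999 at 6 weeks and 4979 to 6174 at 12 weeks. In whole iBAT EGR1 averaged 57.2 at 6 weeks and 172 at 12 weeks, with an SD of 130.5 at the latter, so the means there stood in the opposite order. The part of tissue handling in the SVF values was not tested.

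Cytokines, chemokines and their targets fell with them. TNFAIP6, a hyaluronan-binding protein induced by inflammation, had a scaled FPKM of 289.5, 117 and 83.0 at 6 weeks and of 12.4, 18.3 and 22.0 at 12 weeks, a fall of 2.97 ± 0.40 (adjusted p = 7.49e-05). IL6 had 142, 100.2 and 58.6 against 17.98, 22.8 and 33.1, a fall of 1.94 ± 0.46 (adjusted p = 0.00569). GRO-B, a neutrophil chemokine that the RefSeq table lists as CXCL1, had 144, 90.7 and 88.8 against 17.2, 10.7 and 38.6, a fall of 2.38 ± 0.46 (adjusted p = 0.00145). The highest 12-week value of each lay below the lowest 6-week value.

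CCL11, eotaxin, had 24.5, 8.31 and 49.9 at 6 weeks and 3.02, 4.13 and 3.28 at 12 weeks (log2 fold change -2.37, adjusted p = 0.00154). CXCL10, a chemokine induced by interferon, fell by 1.95, PTGS2, the inducible cyclooxygenase, by 1.25, and the alarmin gene IL33 by 1.07. CCL2, a monocyte chemokine, fell by 1.24 (adjusted p = 0.00951), a call lost without replicate 2 at 12 weeks (0.0551) or replicate 1 at 6 weeks (0.0641). Altogether 15 of 31 tested genes of this list fell and 4 rose (61.3%, against 20.7% of all genes tested), with a median of -0.48, and the rises numbered 2 without replicate 2 or 3 of 6 weeks. Those that rose included CCL4, a macrophage chemokine, from 11.7, 11.6 and 8.01 to 45.3, 26.8 and 40.3 (log2 fold change 1.74, adjusted p = 0.00465), and IL34, a ligand of the macrophage receptor CSF1R, from 12.5, 8.48 and 7.17 to 23.5, 15.9 and 20.3 (1.03, adjusted p = 0.00456).

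Few interferon response genes passed the test. IRF1, a transcription factor of that response, had a scaled FPKM of 247, 215 and 195 at 6 weeks and of 49.5, 67.9 and 64.1 at 12 weeks (log2 fold change -1.84 ± 0.24, adjusted p = 6.6e-05). DDX58, the RNA sensor RIG-I, fell from 69.0, 51.2 and 87.1 to 15.8, 19.2 and 19.9 (-1.84, adjusted p = 9.28e-05). They were the 2 of 25 tested genes that fell, none rose, and 8% is below the 20.7% of all genes tested. The summed level of the list was 509.7 to 587 at 6 weeks and 249.6 to 319 at 12 weeks.

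Part of the macrophage genes fell. MRC1, the mannose receptor CD206, had a scaled FPKM of 49.7, 45.7 and 22.7 at 6 weeks and of 4.01, 6.25 and 8.46 at 12 weeks, a fall of 2.45 ± 0.41 (adjusted p = 0.00052). CD163, the scavenger receptor for hemoglobin, had 23.1, 18.3 and 7.96 against 2.14, 2.89 and 3.47, a fall of 2.08 ± 0.48 (adjusted p = 0.00507). LYVE1, a hyaluronan receptor of lymphatic endothelium that resident macrophages also carry, had 107, 76.9 and 43.7 against 11.3, 17.4 and 32.5, a fall of 1.88 ± 0.43 (adjusted p = 0.00476). FOLR2 fell by 1.70 and the antibody receptor gene FCGR1A by 1.68.

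Among 18 tested markers of macrophages and monocytes 6 fell and none rose (33.3%, against 20.7% of all genes tested), with a median of -0.39. Without the 12-week replicate 3 or the 6-week replicate 1, 2 rose and 4 fell. The remaining members that fell were CSF1R and MSR1, and their calls depended on single libraries. CSF1R, at 60.6, 50.6 and 31.0 against 18.4, 27.3 and 18.8, lost its call without replicate 1 or 2 at 6 weeks (adjusted p = 0.0861 and 0.0523) or replicate 1 or 3 at 12 weeks (0.0613 and 0.0661). MSR1 lost its call without any single library other than replicate 3 at 6 weeks (0.0522 to 0.138). TYROBP, a signalling adaptor of myeloid cells, had 33.6, 30.2 and 16.7 against 28.1, 36.2 and 23.2 (adjusted p = 0.737), and CD14 had 26.7, 19.7 and 20.5 against 17.3, 27.3 and 19.5 (adjusted p = 0.858). The list's summed level overlapped, at 259.7 to 511 and 235 to 379.

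Lymphocyte genes were low at both ages and higher at 12 weeks. JCHAIN, the joining chain of secreted antibodies, rose from 14.6, 13.98 and 6.65 to 18.8, 70.5 and 44.8 (log2 fold change 1.73, adjusted p = 0.0075). CD247, a chain of the T cell receptor complex, rose from 0.442, 1.32 and 1.69 to 3.70, 7.64 and 3.81 (1.48, adjusted p = 0.00702). Of 16 matched markers of B and plasma cells 4 could be tested and all 4 were higher, where 20.7% of all genes tested differed. Without replicate 2 or 3 at 12 weeks or replicate 3 at 6 weeks, 2, 1 and 2 of the 4 were called. CD79B (0.42, 0.31 and 0.17) and MZB1 (0.52, 0.57 and 0.30) were under 1 at 6 weeks. They passed the filter only through their 12-week values and so could only come out higher. Of 25 matched markers of T and NK cells 6 could be tested and 2 were higher (33.3%). The number was 3 without the 12-week replicate 1 and 1 without any 1 of the other libraries except the 6-week replicate 2. Most of the others were under a scaled FPKM of 1 in all 6 libraries (7 and 7 markers) or passed 1 in too few, so genes high in the 12-week libraries alone could enter these counts more easily. The summed B and plasma cell level was 9.10 to 18.3 at 6 weeks and 27.0 to 93.0 at 12 weeks. Of 8 tested markers of granulocytes and mast cells 1 rose (12.5%, under the 20.7% of all genes tested). It was CSF3R, a growth factor receptor of neutrophils (log2 fold change 1.68, adjusted p = 0.00699, and 0.0509 without the 6-week replicate 3). Without the 12-week replicate 2 or the 6-week replicate 2 the rises on this list were 2 and 4.

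Of 18 tested markers of blood endothelium 1 rose and none fell (5.56%, against 20.7% of all genes tested), and the rise was lost without replicate 2 or 3 at 12 weeks or replicate 1 or 2 at 6 weeks. PECAM1, its defining adhesion molecule, had 69.3, 59.1 and 186 at 6 weeks against 53.4, 90.5 and 43.7 (adjusted p = 0.337). Of 17 mural and contractile genes 3 fell and none rose (17.6%), with a median log2 fold change of -0.13. The falls numbered 1 without replicate 3 of either age and 5 without the 6-week replicate 2. Without the 6-week replicate 3, 1 gene rose and the median was 0.17. Fold changes were positive in 7 genes, such as TAGLN (0.93) and ACTA2 (0.54), neither of them called, and negative in 10. The list's summed level overlapped, at 450 to 929 and 534 to 542.5. ABCC9, a potassium channel subunit of pericytes, fell from 17.7, 20.1 and 23.5 to 9.25, 9.39 and 9.85 (log2 fold change -1.02, adjusted p = 0.00244). RGS5, the usual pericyte marker, fell by 1.69 but owed its call in part to 258 in the 6-week replicate 3, without which its adjusted p was 0.116. It was also lost without replicate 1 (0.073) or 3 (0.077) at 12 weeks. The 6-week replicate 3 was thus the highest library for RGS5, PECAM1 and ADIPOQ alike. Of 7 tested Schwann cell and neural genes 2 rose (28.6%), none without the 12-week replicate 1 and 1 without replicate 2 or 3 at 6 weeks. Of 5 tested lymphatic markers LYVE1 alone fell (2 fell without the 12-week replicate 2). No marker of mesothelium passed the filter on low values.

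Skeletal muscle genes varied between the libraries of each age. ACTA1, the actin of skeletal muscle, had a scaled FPKM of 60.1, 54.6 and 0.257 at 6 weeks and of 0.667, 0.440 and 60.9 at 12 weeks. Replicates 1 and 2 of 6 weeks and replicate 3 of 12 weeks were thus high and the other 3 low, and MYL1, a myosin light chain, and CKM, the muscle creatine kinase, had the same libraries high. None of the 10 tested genes was called, in any fit that left out 1 library, and their median log2 fold change was -0.97, or -1.96 without the 6-week replicate 3. The summed level of the list was 2.99 to 133 at 6 weeks and 2.30 to 126 at 12 weeks. The part of this muscle RNA in the counts above, several of which moved without the 12-week replicate 3, was not tested.

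Nuclear genes for the respiratory chain rose by small amounts. COX5B, a subunit of cytochrome c oxidase, had a scaled FPKM of 72.1, 70.8 and 63.8 at 6 weeks and of 148, 122 and 163 at 12 weeks, a rise of 1.05 ± 0.14 (adjusted p = 8.9e-05). COX4I1, another subunit of that enzyme, had 132, 131 and 161 against 249.5, 251 and 302, a rise of 0.92 ± 0.14 (adjusted p = 0.00021). Of 46 tested genes of oxidative phosphorylation 27 rose and none fell, 58.7% against 9.47% of all genes tested, with a median of 0.53. Without the 12-week replicate 3 the number was 12, and without the 6-week replicate 3 it was 17. Of 11 tested thermogenic genes none rose and 2 fell, namely EBF2 above and its relative EBF3 (log2 fold change -0.61, adjusted p = 0.0149). This share of 18.2% is near the 20.7% of all genes tested. The median of the list was 0.09, with 7 positive and 4 negative fold changes. The call of EBF3 was lost without replicate 3 at 12 weeks (0.107) or at 6 weeks (0.0644) and with the deposited values (0.0929). Of 16 tested heat shock genes 1 rose and 3 fell (25%), but 1 fell without the 12-week replicate 2 or the 6-week replicate 1 and none rose without the 12-week replicate 3. Of 20 genes of the unfolded protein response 1 fell (5%), none without the 12-week replicate 1 or 2 or the 6-week replicate 1, while without the 6-week replicate 2, 3 fell and 1 rose.

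Genes for cytosolic ribosomal proteins, a list added after their values were seen, behaved in the same way. Of 70 tested 48 rose and none fell, 68.6% against 20.7% of all genes tested, with a median of 0.66. Without the 12-week replicate 3 the rises numbered 33, and without the 6-week replicate 3 they numbered 36. The summed scaled FPKM of the list was 32130 to 36690 at 6 weeks and 47870 to 59070 at 12 weeks. These genes have many near-identical copies in the genome, and several rows of the table traded places between ages. RPS6, a protein of the small subunit, rose from 58.5, 34.4 and 39.0 to 264, 204 and 356 (log2 fold change 2.62), whereas LOC100339133, another row for the same protein, went from 555, 265 and 502.5 to 38.8, 208 and 224 (adjusted p = 0.0548). Summed over the 5 rows of ribosomal protein S6, the level was 1176, 930.0 and 977 at 6 weeks and 1345, 1389 and 1706 at 12 weeks. Summed over all 155 rows described as cytosolic ribosomal proteins it was 36380, 31470 and 31100 at 6 weeks and 49930, 49650 and 61010 at 12 weeks, without overlap. The list held only rows with a ribosomal gene symbol. Of the 155 rows 101 were tested, of which 57 were called higher and 3 lower.

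The same trading was seen in genes outside the ribosome. DCPS, which clears the caps left by mRNA decay and was among the 12 largest rises, had a scaled FPKM of 0.494, 3.69 and 1.00 at 6 weeks and of 14.9, 16.7 and 19.5 at 12 weeks (log2 fold change 2.90, adjusted p = 0.00791). LOC100338456, which the table gives the same product name, had 11.1, 6.72 and 10.2 at 6 weeks and was listed at 0 in all 12-week libraries. Their sum was 11.6, 10.4 and 11.2 against 14.9, 16.7 and 19.5, so the change in DCPS was in part matched by an opposite change in its second row. DCPS lost its call with a pseudocount of 0.1 (adjusted p = 0.0661). For SDHD, a subunit of succinate dehydrogenase which rose by 0.53 (adjusted p = 0.00948, and 0.0692 or 0.0611 without replicate 3 of 12 or 6 weeks), the second row LOC100346169 was likewise listed at 0 at 12 weeks, and the sums overlapped, at 28.5 to 32.5 and 29.6 to 41.9. How the authors' counting divided fragments among such rows is not given in the sources used here.

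**Figure D3:**
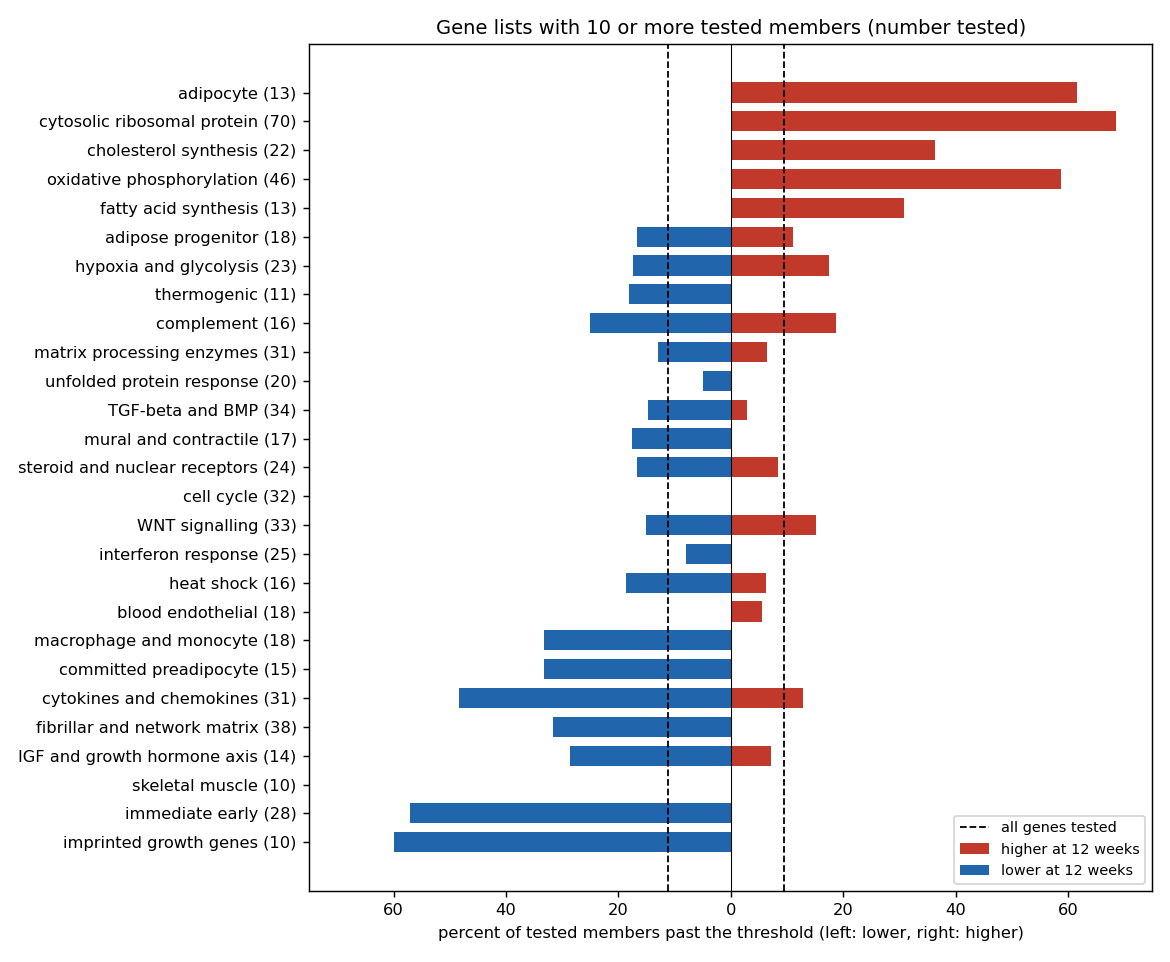
Percent of the tested members of each gene list that were higher (right, red) or lower (left, blue) at 12 weeks in the interscapular SVF, for lists with 10 or more tested members, ordered by median log2 fold change; dashed lines mark the 9.47% higher and 11.2% lower among all genes tested. Adipocyte, ribosomal, oxidative phosphorylation and cholesterol genes extend to the right only, and imprinted and immediate early genes to the left only.

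Complement genes were divided. C4BPA, the alpha chain of the C4b-binding protein that restrains complement, had a scaled FPKM of 80.2, 54.5 and 54.4 at 6 weeks and of 391, 349 and 529 at 12 weeks, a rise of 2.73 ± 0.40 (adjusted p = 0.000169). C4A, the complement component that this protein binds, fell from 152, 227 and 91.9 to 33.5, 74.0 and 36.5 (log2 fold change -1.69, adjusted p = 0.00838). Of 16 tested complement genes 3 rose and 4 fell (43.8%, against 20.7% of all genes tested). Leaving out 1 library moved these counts most without the 6-week replicate 1, to 1 and 1. The rises were also 1 without the 12-week replicate 2 or the 6-week replicate 3, and the falls 1 without the 12-week replicate 1 and 2 without the 6-week replicate 2.

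Ligands and receptors of WNT signalling, a pathway that holds back fat cell differentiation in many settings, moved in opposite ways. SFRP5, a secreted inhibitor made by fat cells, rose from 0.380, 0.436 and 0.267 to 2.50, 4.07 and 4.66 (log2 fold change 1.77, adjusted p = 0.000466), and the ligand gene WNT10B from 7.44, 11.5 and 9.77 to 29.9, 16.6 and 25.4 (1.22, adjusted p = 0.00907). SFRP5, under 1 at 6 weeks, passed the filter only through its 12-week values and so could only come out higher. LRP6, a co-receptor, fell from 12.4, 10.3 and 11.1 to 4.64, 4.15 and 3.51 (-1.27, adjusted p = 9.98e-05). In the list of 33 tested genes 5 rose and 5 fell (30.3%, against 20.7% of all genes tested). Leaving out any 1 library other than the 6-week replicate 2 gave 2 or 3 rises, and the falls were 2 without the 12-week replicate 3 and 3 without the 6-week replicate 1. In that of TGF-beta and BMP signalling 1 of 34 rose and 5 fell, a share of 17.6% that is under the 20.7% of all genes tested: the ligand gene BMP4 rose by 1.12, the ligand gene TGFB2 fell from 32.0, 26.2 and 23.1 to 8.10, 9.77 and 9.08 (-1.48, adjusted p = 6.93e-05), and the receptor gene BMPR2 fell by 1.23. Those falls numbered 2 or 3 without any 1 of replicates 2 and 3 of 12 weeks and replicates 1 and 2 of 6 weeks.

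Genes of glucose use and of the hypoxia response split as well. HK2, the hexokinase that traps glucose, fell from 43.7, 27.3 and 36.7 to 12.3, 9.38 and 8.98 (log2 fold change -1.70, adjusted p = 0.00299), and VEGFA, the vascular growth factor, from 64.2, 42.8 and 38.1 to 16.5, 15.6 and 15.6 (-1.51, adjusted p = 0.000129). LDHA, lactate dehydrogenase, rose from 58.3, 48.9 and 58.3 to 89.8, 93.2 and 106 (0.80, adjusted p = 0.00172). Of 23 tested genes 4 rose and 4 fell (34.8%, against 20.7% of all genes tested). PDK4, which blocks the entry of pyruvate into mitochondria, was among the largest falls, with 95.3, 35.1 and 76.4 at 6 weeks and 8.75, 16.04 and 10.6 at 12 weeks (-2.38 ± 0.43, adjusted p = 0.000908). NR3C1, the glucocorticoid receptor, fell from 32.9, 41.4 and 31.8 to 22.7, 24.2 and 23.6 (-0.56, adjusted p = 0.00328), and TSC22D3, a target that glucocorticoids induce, rose from 40.5, 44.4 and 56.5 to 72.4, 74.0 and 89.9 (0.74, adjusted p = 0.00485). Among 24 tested steroid and nuclear receptor genes 2 rose and 4 fell, and this 25% is near the 20.7% of all genes tested. Without the 6-week replicate 1 the rises numbered 1.

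The other genes with the largest changes had varied roles. ADORA1, annotated as the A1 adenosine receptor, rose from 1374, 1608 and 1134 to 13700, 12240 and 19600 (log2 fold change 3.45, adjusted p = 0.0122), with an adjusted p of 0.0503 without the 12-week replicate 3. LOC100009266 moved with it, at 730 to 1014 and 5101 to 10140, and lost its call without any 1 of the 6 libraries (adjusted p = 0.0527 to 0.115). CYP2B4, a drug-metabolizing cytochrome P450 with closely similar relatives, rose from 0.370, 0.693 and 0.450 to 11.3, 12.2 and 9.29 (2.99, adjusted p = 3.17e-05), and FAM180B rose by 2.94. CYP2B4, under 1 at 6 weeks, passed the filter only through its 12-week values and so could only come out higher. ERRFI1, an inhibitor of the EGF receptor, fell from 216, 98.2 and 193 to 37.6, 26.8 and 27.2 (-2.37, adjusted p = 4.61e-05). CYP1B1, a cytochrome P450 that metabolizes steroids, fell by 2.28 and RNF122, a ubiquitin ligase, from 104, 80.5 and 102 to 17.3, 18.1 and 23.9 (-2.22, adjusted p = 5.18e-05).

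Whether the changes differed between depots was asked with the interaction of depot and age. In the sBAT SVF 1111 of the same genes (9.55%) differed between 12 and 6 weeks, 439 (3.77%) higher and 672 (5.78%) lower, or 871 and 318 with the deposited values. That count was 488 to 707 without any 1 of the 6 sBAT libraries other than the 12-week replicate 2. Of the 2404 genes called in the iBAT SVF, 2204 (91.7%) had the same sign in the sBAT SVF, against 71.1% of all genes tested. The genes called in both, 666 in number, were 27.7% of the iBAT calls and 59.9% of the sBAT calls, and 665 of them had the same sign. A direct test of the difference called 1 gene (0.00860%), and 1169 had an unadjusted p under 0.05. That gene, LOC100356732, was listed at 0 in all 3 iBAT libraries of 6 weeks and at 21.2, 12.0 and 15.7 at 12 weeks, while in the sBAT SVF it had 15.4, 7.97 and 18.6 at 6 weeks and 16.3, 2.49 and 3.25 at 12 weeks. It passed the filter, which used the iBAT libraries alone, only through its 12-week values, so its iBAT change could only be a rise. The number of interaction calls ranged from 0 to 6 when 1 library was left out, and it was 0 without replicate 1 of either age in the iBAT SVF and without the 6-week replicates 1 and 3 or the 12-week replicate 2 of the sBAT SVF. None of those 5 left LOC100356732 called. With the replicate number as a block within each age 3 genes were called, LOC100356732 (adjusted p = 0.00996), C4BPA (0.0419) and LOC100353245 (0.0419, a log2 difference of 1.62), the last named after its value was seen.

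Most named changes were thus shared in direction, and both contrasts rest on separate libraries, although whether the depots came from the same rabbits is not stated. The log2 fold changes of MRC1 were -2.45 in the iBAT SVF and -2.50 in the sBAT SVF, and those of PEG10 were -1.78 and -1.84, those of DDX58 -1.84 and -1.93, and those of CYP2B4 2.99 and 2.85. Through the filter, CYP2B4 could only come out higher in the iBAT SVF. The erythroid genes rose in both, ALAS2 by 4.52 and 5.99, and by 12 weeks HBB2 averaged 6196 in the iBAT SVF and 29600 in the sBAT SVF. C4BPA had a log2 fold change of 0.07 in the sBAT SVF (adjusted p = 0.934), where its mean was 213 at 6 weeks and 229 at 12 weeks. The difference between depots was 2.65 ± 0.57 for C4BPA, but its adjusted p was 0.133, or 0.0419 with the replicate block. CCL11 had 0.03 in the sBAT SVF, and the difference of -2.39 had an adjusted p of 0.236. For FOSL1, at -2.06 and -0.08, the difference of -1.98 had an adjusted p of 0.153, and for SERPINH1, at 0.78 and -0.38, that of 1.15 had an adjusted p of 0.133.

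**Figure D4:**
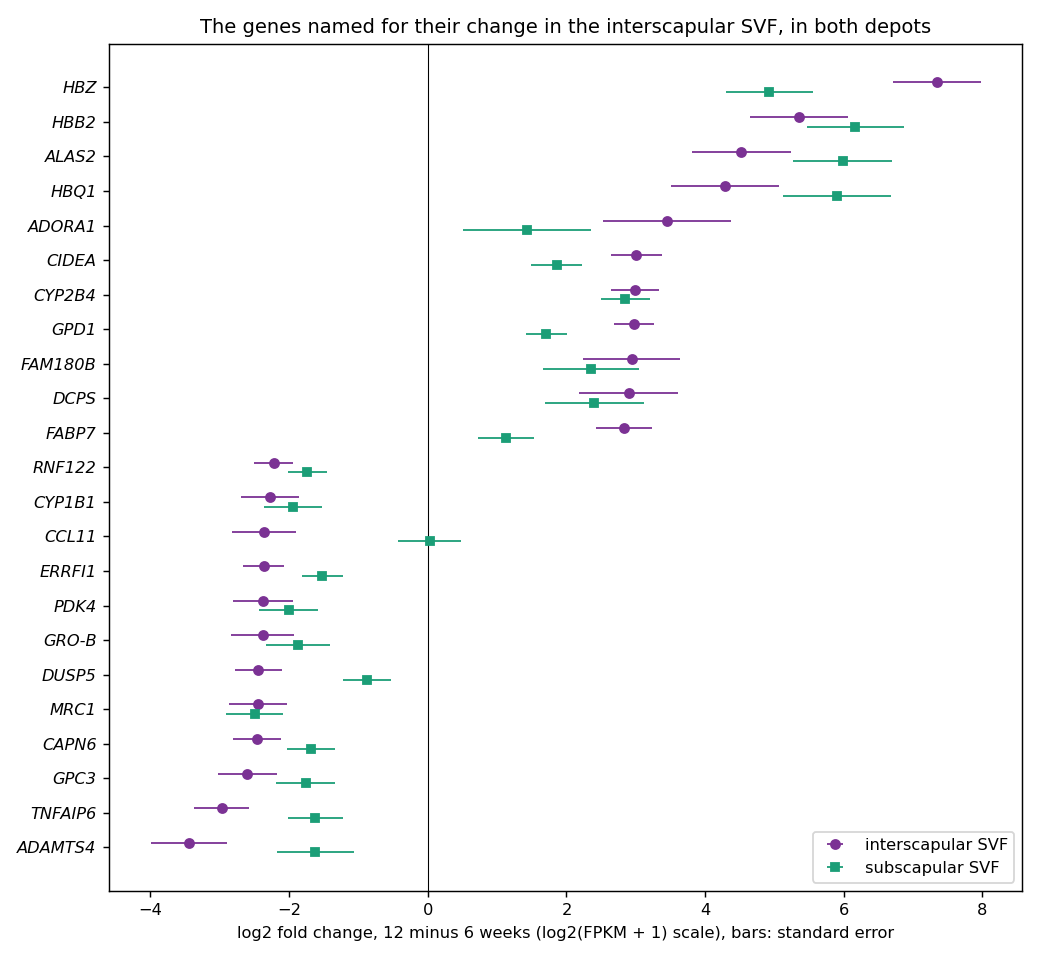
Log2 fold change of 12 minus 6 weeks, with standard error bars, for 11 of the 12 genes with the largest rises and the 12 with the largest falls in the interscapular SVF (circles), beside the same contrast in the subscapular SVF (squares). Both depots lie on the same side of 0 for every gene shown other than CCL11, which is at -2.37 and 0.03.

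The earlier ages of the same depot place these changes. UCP1, already near 0 at 6 weeks, was at 19.2, 5.31 and 45.3 at day 1 and at 6.79, 0.518 and 11.9 at 3 weeks in the iBAT SVF. HBB2 in the iBAT SVF averaged 13670 at day 1, 1471 at 3 weeks, 185 at 6 weeks and 6196 at 12 weeks, so the 6-week group was the lowest of the 4, and HBZ and ALAS2 had the same order around their 6-week minimum. CIDEA averaged 5.42, 64.1, 5.58 and 51.5, and the 3-week and 12-week groups were both high, with an SD of 37.4 at 3 weeks. GPD1 averaged 5.01, 10.8, 5.32 and 49.3. These genes were thus low at 6 weeks relative to an age on each side, and the comparison with 6 weeks alone does not show a steady rise.

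Other genes changed in 1 direction over all 4 ages. GPC3 averaged 175, 53.3, 16.1 and 1.54 in the iBAT SVF and 112, 60.5, 27.1 and 6.38 in the sBAT SVF. PI16 averaged 370.0, 654, 1232 and 2599 in the iBAT SVF, and C4BPA 8.23, 25.1, 63.0 and 423. PEG10 averaged 53.3 at day 1 and then 9.49, 9.46 and 1.86, and PLAGL1 53.4, 18.4, 17.4 and 3.57. EGR1 was high in the middle, at 761, 1125, 1366 and 706, while MRC1 averaged 77.9, 27.6, 39.3 and 6.24 and TNFAIP6 194, 114, 163 and 17.6, with 12 weeks the lowest group for both. No test was made between the other ages here, and these orders are descriptions.

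**Figure D5:**
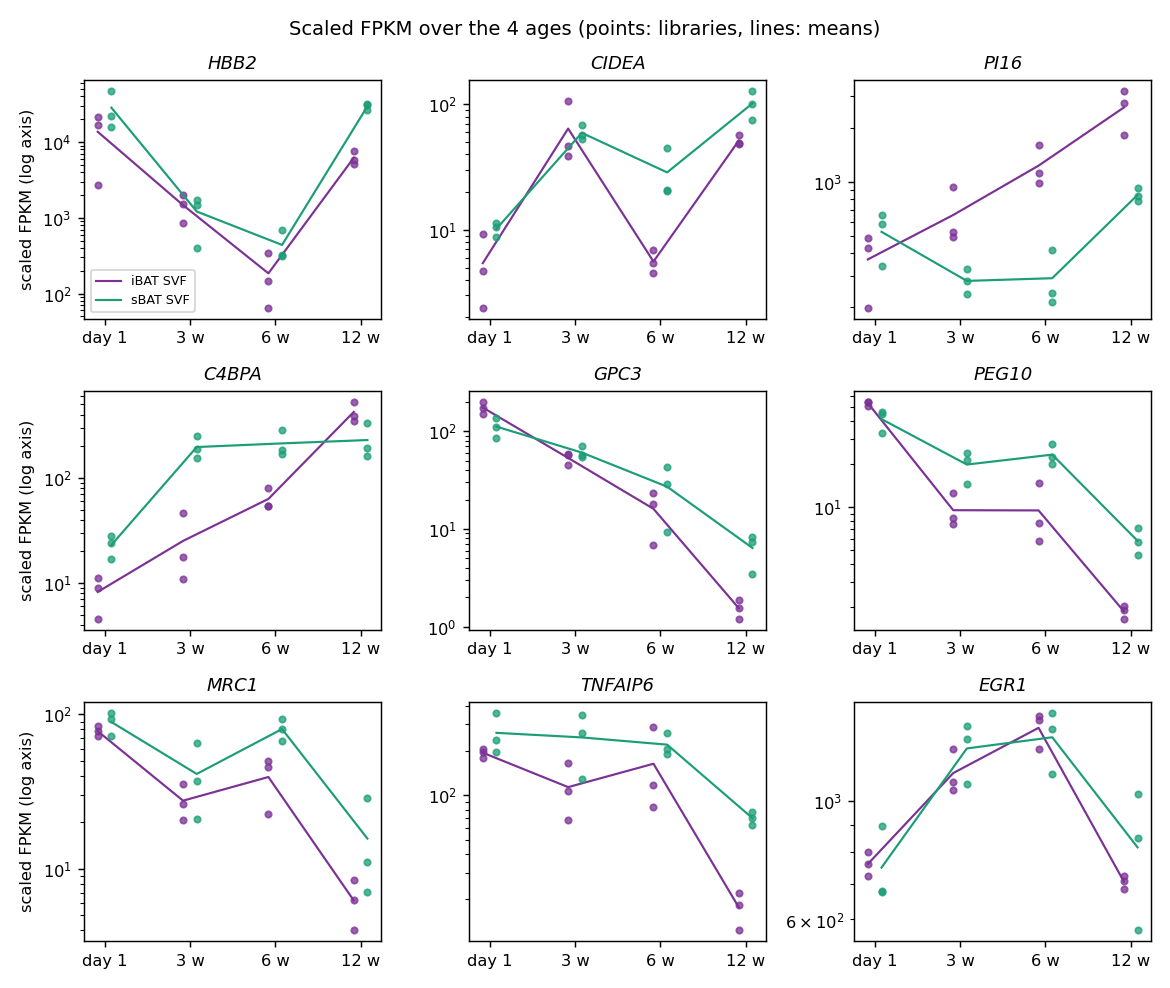
Scaled FPKM of 9 genes on log axes at day 1 and at 3, 6 and 12 weeks in the interscapular (purple) and subscapular (green) SVF, with 1 point per library and lines joining the means of 3. HBB2 is lowest at 6 weeks in both depots, GPC3 falls and C4BPA rises at every step in the interscapular SVF, and the means of C4BPA in the subscapular SVF are 213 and 229 at 6 and 12 weeks.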

How the data were processed

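Bulk RNA-seq of the iBAT SVF, the sBAT SVF and whole iBAT was deposited as 1 table per fraction, with 24 SVF libraries. The authors deposited FPKM values per gene, per the file headers, rounded to 2 decimals and relative to each library's own total, so no counts were at hand and no count model was used. The submitters' processing notes name HISAT2 2.0.4, Bowtie2 2.2.5, DESeq2 and the build OryCun2.0. How fragments were counted, and on which annotation, is not given in the sources used here. Gene names came from the table. For 17693 of 20589 identifiers (85.9%) a RefSeq table of another assembly, mOryCun1.1, held a match by gene ID, and it was used for names only.

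The deposited FPKM were scaled by median ratios over all SVF libraries, a pseudocount of 1 was added and log2 was taken, which understates the change of low genes. Genes with a scaled FPKM of at least 1 in at least 3 of the 6 libraries compared were kept. limma 3.58.1 (R 4.3.3) fitted 8 group means to all 24 SVF libraries with a trend in the prior variance (16 residual degrees of freedom), and p-values were adjusted by Benjamini-Hochberg over all 11632 genes at a threshold of 0.05. The scripts were tested on simulated data. Depth is known only relative to the other libraries, so no counting interval is given.

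Named genes were the 12 largest rises and 12 largest falls among called genes that had a symbol, did not overlap between ages and averaged at least 10 in a group, any tested member of a gene list, genes called in the interaction, the 10 most abundant genes and the checks UCP1, ADORA1 and LOC100009266. A few genes that this rule named are not reported here. The members, lists and tests were chosen with earlier results of these data known. The ribosomal list and the sums over near-identical rows were added after values were seen, and counts of list members are descriptions. Groups came from the titles. Alternatives covered scaling, pseudocount, filter, libraries in the fit, variance moderation, sample weights, a replicate block and leaving out each library.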

Additional observations from a re-analysis of the deposited data

Results flagged for a closer look

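LOC100356732, an uncharacterized locus in the table, was the 1 gene whose change with age differed between depots by a direct test. The change from 6 to 12 weeks in the iBAT SVF minus that in the sBAT SVF was 5.24 on the log2(FPKM + 1) scale (limma, adjusted p = 0.0154). The locus was listed at 0 in all 3 iBAT SVF libraries of 6 weeks, and at 9.40 to 20.02 at 3 weeks, 5.92 to 17.1 at day 1 and 42.5 to 60.8 in whole iBAT at 6 weeks. The call held in 16 of 22 alternative settings, over which the difference ranged from 4.81 to 8.66 and the adjusted p from 4.6e-05 to 0.0775. A value listed at 0 in a table without counts can be a failed estimate, and this was not tested.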

How the results depend on the processing

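Of the 107 called genes named, 91 kept their call and direction in every setting in which they were tested (86 in 17, 5 in 16), and 16 lost it in at least 1, 57 times in all, with no change of sign. The sign turned only in genes that did not pass the test: TYROBP was at -0.006 (log2) with sample weights, and without 1 library PDGFRA ranged from -0.27 to 0.16, FOS from -0.21 to 0.016, TYROBP from -0.14 to 0.34 and CD14 from -0.26 to 0.059. The 2404 calls in the iBAT SVF became 570 with an absolute log2 fold change of at least 1, 4224 with sample weights and 1430 to 2043 without 1 library. With the deposited values 1592 of the calls (66.2%) were shared, and without the 12-week replicate 3, 1380 (57.4%). The 1111 calls in the sBAT SVF became 420, 3212 and 488 to 755 in those settings. The 1 interaction call became 2 with the deposited values, 0 with no filter on low values, 2 with a filter at 5, 33 with only the groups compared, 448 with sample weights and 0 to 6 without 1 library. The 188 calls among 609 tested list members became 105 with the fold threshold and 138 to 169 without 1 library. A replicate block gave 2262, 976, 3 and 181. The numbers share no source that the labels state: deviations of same-numbered libraries correlated at -0.13, -0.34 and -0.33 between the iBAT SVF ages, so the numbers do not pair the ages. Between depots they correlated at 0.27, 0.54 and 0.35 at 12 weeks but at -0.16, -0.3 and -0.14 at 6 weeks, so pairing of the depots is hinted at 12 weeks only. The causes were not tested, other than that fewer samples or a stricter threshold were used where stated. A fit of the 12 iBAT SVF libraries alone gave 3382 calls and no value for the sBAT SVF or the interaction. Precision was limited by 3 libraries per group, and low genes by a depth that is known only in relative terms.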

Other observations

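Rows at or near 0 at 1 of the 2 ages of the iBAT SVF were also seen besides LOC100356732. LOC100340442, a row described as ribosomal protein L10 and singled out after its values were seen, had a scaled FPKM of 228, 235 and 189 at 6 weeks and of 0, 0 and 1.75 at 12 weeks, while the 5 rows of that protein summed to 1336, 1222 and 1199 at 6 weeks and to 1821, 1790 and 2086 at 12 weeks. Its adjusted p without the 12-week replicate 1 or 2 or the 6-week replicate 1 was 0.0517 to 0.0554. The 3 rows of ribosomal protein S17 summed to 0.452, 0.816 and 2.87 at 6 weeks and to 164, 117 and 145 at 12 weeks.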
